A study of Mus musculus with 8 samples.

Results

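Regulatory T cells (Treg) were compared with CD44hi CD4+ T cells over the mouse genes of an Agilent array. The Treg population suppresses immune responses, while the CD44hi population is where effector and memory helper cells are found. The comparison uses the 4 samples titled as the first and second Treg and CD44hi samples, out of 8 samples in the series. The other 4 samples, 2 naive and 2 CD44lo, entered the fit only to estimate the spread between arrays and are shown beside the key genes. Every group, controls included, came from C57BL/6 male mice aged 15 weeks that carried Ox40-cre and ROSA-YFP, per the series title. In such mice a cell that has expressed Ox40 (Tnfrsf4) switches on YFP permanently, so the reporter keeps a record of past Ox40 expression. Cells of each group were sorted from pooled spleen and lymph nodes. The labels give neither the surface markers of the sort nor the YFP status of a group, and they do not say whether the first and second sample of a group are separate animals. All p-values therefore rest on the differences between samples of a group, and these may be technical only.

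As background, Treg cells are defined by the transcription factor Foxp3. They carry the high-affinity receptor for interleukin-2 (IL-2) but make little IL-2 themselves, and they restrain other T cells through receptors such as Ctla4 and through cytokine capture and adenosine. CD44hi CD4+ T cells are the classical effector and memory compartment of spleen and lymph node, marked by the adhesion receptor CD44 and by the helper cytokines of the Th1, Th2, Th17 and follicular programmes. The comparison asks which genes separate the suppressive population from the helper population.

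A gene's level is given as the log2 of its signal minus the log2 of the 75th percentile of that array, so that 0 is the signal of that percentile and 1 unit is a doubling. Levels of different genes come from different probes and are not ranked, and sums over a marker list serve only to set arrays side by side. The share of the 41174 probes with a signal well above background ranged from 59.2% to 68.8% over the 8 arrays. It was 67.9% and 62.5% on the Treg arrays and 64.8% and 68.8% on the CD44hi arrays. The SD of the difference between a group's 2 arrays was 0.391 in Treg and 0.447 in CD44hi, and was widest in naive at 0.622. Treg array 1 and CD44hi array 1 shared a slide, and Treg array 2 and CD44hi array 2 shared the other, so that slide and sample number cannot be told apart for these groups.

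Of 17467 genes tested, 1506 (8.62%) were called different between Treg and CD44hi at a Benjamini-Hochberg adjusted p under 0.05 (limma). Of these, 784 (4.49% of all tested) were higher and 722 (4.13%) lower in Treg. The called genes had the same sign within each slide in 1506 of 1506 cases. The arrays of both slides made the calls, so this agreement is nearly fixed by the calling and is not separate evidence. Over all tested genes the median difference was -0.02, with 0.03 on slide 1 and -0.05 on slide 2. Called genes changed by at least 1.48-fold, with a median of 2.85-fold, and 189 higher and 269 lower genes differed by over 4-fold. The arrays of the 2 groups did not overlap for 61.1% of all tested genes (29.5% with Treg higher and 31.6% with Treg lower), so a lack of overlap alone separates little here. An exact permutation test of 2 arrays against 2 cannot go below p = 0.333, so calls on single genes rest on the spread that limma shares across genes. Without Treg array 1, Treg array 2, CD44hi array 1 or CD44hi array 2, in that order, 591, 657, 944 and 788 genes were called, and without both naive arrays 2876 were.

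The size of a difference depended on the background handling where a gene was dim. Of the 130 called genes named here, 47 had a fold over 1.5 times smaller in the authors' deposited table or under normexp background correction, and none had one larger by that much. In each of the 47 the lower group's mean level was below -2, as it was in 63 of the named called genes. Fold changes to such levels, and those written as "at least", therefore hold on the background-subtracted scale used here, and the smaller value is given beside the main examples.

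**Figure D1:**
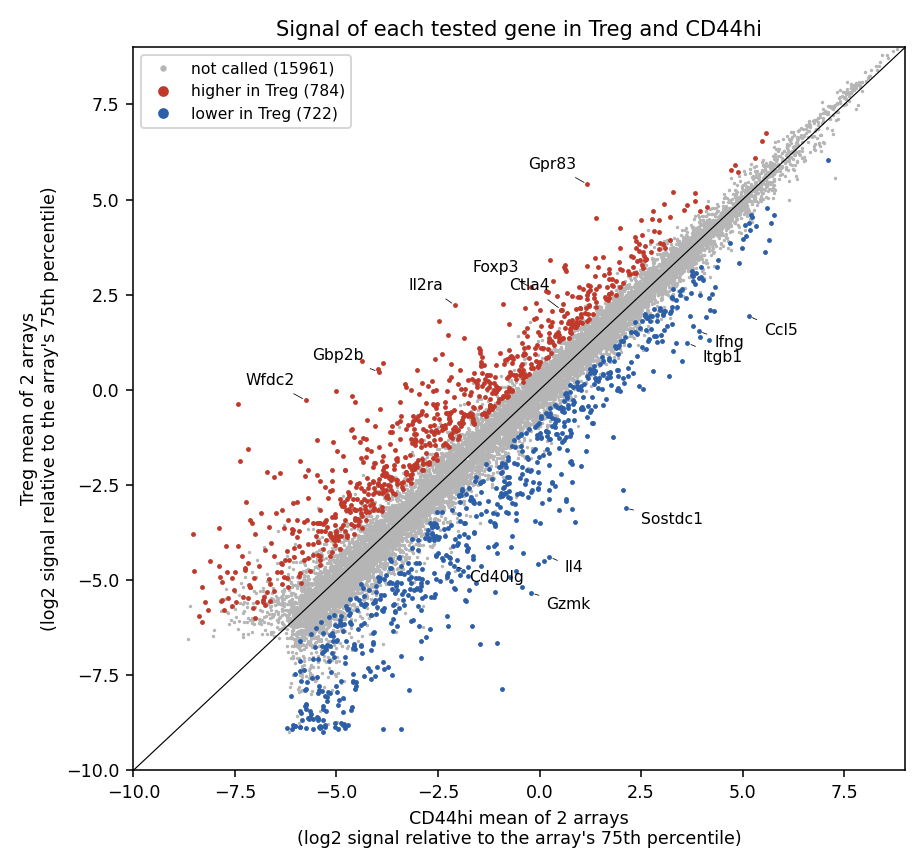
Mean level of each tested gene in Treg (y axis) against CD44hi (x axis), 2 arrays each, in log2 signal relative to the array's 75th percentile. Red points are the 784 genes called higher in Treg, blue points the 722 called lower and grey points the genes not called, with the line of equal level. Gpr83, Il2ra and Foxp3 lie far above the line, and Gzmk, Sostdc1 and Il4 far below it.

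**Figure D2:**
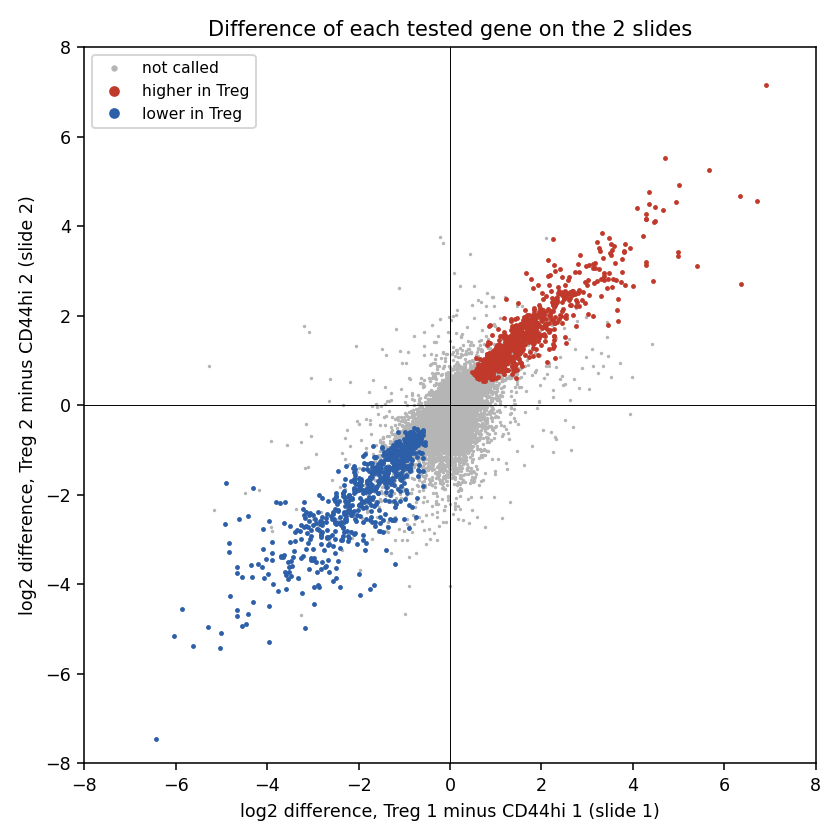
Difference of each tested gene within slide 1 (x axis, Treg array 1 minus CD44hi array 1) and within slide 2 (y axis, Treg array 2 minus CD44hi array 2), on the log2 scale. The genes called higher (red) or lower (blue) in Treg have the same sign on both slides in 1506 of 1506 cases. The same arrays made the calls, so this agreement is not separate evidence.

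The defining factor of Treg cells matched the sort labels. Foxp3 measured 2.73 and 2.65 on the Treg arrays against -0.28 and -0.15 on the CD44hi arrays, a 7.52-fold difference (log2 2.91 ± 0.28 standard error, limma adjusted p = 0.00178). The naive arrays lay at -5.43 and -4.69, so Foxp3 was low but not at the naive level in CD44hi. Cd44, which encodes the receptor that names the CD44hi sort, measured 4.46 and 4.33 there and 3.49 and 3.35 in Treg, 1.97-fold lower in Treg (limma adjusted p = 0.0227). Treg therefore lay between naive (2.11 and 2.50) and CD44hi for Cd44, and its other 2 measured probes had the same direction. Tnfrsf4, the gene whose promoter drives the Cre of the reporter, measured 4.59 and 4.49 in Treg and 3.09 and 3.34 in CD44hi, 2.51-fold higher in Treg (limma adjusted p = 0.0423). The co-receptor gene Cd4 read 0.14 and 0.05 in Treg and 1.21 and 0.38 in CD44hi and was not called (limma adjusted p = 0.499). Il7r, the IL-7 receptor chain that is often used as a negative marker of Treg cells, was at 3.75 and 3.31 against 4.47 and 3.97 and was not called (limma adjusted p = 0.133). The calls of Cd44 and Tnfrsf4 were lost without any 1 of the 4 arrays, whereas that of Foxp3 was kept.

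The sequence just before the start of transcription is shown for the gene that defines Treg, the IL-2 receptor gene that rose in the same direction, and a pair of effector genes that fell. Each window holds the 250 bases before a RefSeq start in GRCm38.p6, read 5′ to 3′ on the gene's strand, and capitals mark any match, on either strand, to the STAT motif TTCNNNGAA, the forkhead motif TGTTTAC, the T-box motif TCACACC, the Runx motif TGTGGTT or the AP-1 motif TGANTCA. Foxp3 is chrX:7580233-7580482 on the plus strand, before the second of 2 starts in the table. Il2ra is chr2:11642542-11642791 on the plus strand, Ifng is chr10:118440796-118441045 on the plus strand, and Gzmk is chr13:113180966-113181215 on the minus strand.
Foxp3: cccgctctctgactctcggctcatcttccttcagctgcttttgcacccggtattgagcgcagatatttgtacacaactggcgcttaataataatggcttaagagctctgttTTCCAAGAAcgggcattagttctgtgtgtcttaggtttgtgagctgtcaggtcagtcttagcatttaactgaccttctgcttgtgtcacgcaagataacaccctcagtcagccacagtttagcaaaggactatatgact
Il2ra: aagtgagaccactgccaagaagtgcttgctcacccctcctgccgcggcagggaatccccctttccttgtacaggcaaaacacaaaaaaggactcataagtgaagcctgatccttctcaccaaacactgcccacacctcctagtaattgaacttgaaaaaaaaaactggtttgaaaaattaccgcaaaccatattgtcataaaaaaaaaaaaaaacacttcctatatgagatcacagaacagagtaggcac
Ifng: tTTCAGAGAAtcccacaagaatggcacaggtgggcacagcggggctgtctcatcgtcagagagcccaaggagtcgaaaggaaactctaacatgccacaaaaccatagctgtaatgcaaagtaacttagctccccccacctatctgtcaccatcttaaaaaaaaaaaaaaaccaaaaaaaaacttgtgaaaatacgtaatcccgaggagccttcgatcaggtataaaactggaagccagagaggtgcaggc
Gzmk: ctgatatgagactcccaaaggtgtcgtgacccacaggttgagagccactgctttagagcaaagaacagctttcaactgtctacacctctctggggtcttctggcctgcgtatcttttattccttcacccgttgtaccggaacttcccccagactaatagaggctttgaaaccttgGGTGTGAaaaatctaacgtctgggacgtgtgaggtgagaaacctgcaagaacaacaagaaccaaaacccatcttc

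The printed Foxp3 window held 1 STAT match, 139 to 131 bases before the second start, and the window before the first start, not printed, held none of the motifs. The Ifng window held 1 STAT match at its far end, and the Gzmk window held 1 T-box match. The Il2ra window held none of these motifs, and neither did the 2 Il4 windows or the Cyp26b1 window, which are not printed. Of the tested genes, 10911 had such a window by symbol. Such a gene counted once, if any of its windows held the motif. The STAT motif was found for 7.13% of these genes. It was found for 9.23% of the 520 called higher in Treg and for 6.28% of the 494 called lower. The forkhead motif was found in 2.81%, 4.04% and 2.43% in the same order, the T-box motif in 3.72%, 4.23% and 4.05%, the Runx motif in 4.23%, 4.62% and 5.87%, and the AP-1 motif in 5.60%, 7.12% and 7.49%. Among all 32851 windows of the table, counted per window and not per gene, the shares were 7.02%, 3.17%, 3.33%, 4.40% and 6.75%. These shares are a description of the windows and were given no test.

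Of 27 tested genes on a list of Treg identity and suppressive function, 14 rose in Treg and none fell by limma (20 higher and 0 lower at an unadjusted p under 0.05), against 4.49% and 4.13% of all tested genes. The counts of the lists that follow stand against these same shares, 8.62% for both directions together. The median difference of the list was 1.32, with 1.38 on slide 1 and 1.23 on slide 2, beside -0.02 over all genes, and 24 of the 27 genes had higher values in Treg. Gpr83, an orphan G protein-coupled receptor, measured 5.53 and 5.27 in Treg against 1.26 and 1.10 in CD44hi, an 18.7-fold difference (log2 4.22 ± 0.16, limma adjusted p = 0.000154). The Gpr83 level of CD44hi lay below that of the naive arrays (2.03 and 2.14). The arrays of the groups did not overlap, which also held, with Treg higher, for 29.5% of all tested genes. Ctla4, the inhibitory receptor that removes CD80 and CD86 from antigen-presenting cells, was 2.94-fold higher at 2.17 and 2.03 against 0.54 and 0.54 (limma adjusted p = 0.00655).

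Swap70, a binding protein of the actin cytoskeleton, rose 5.11-fold (limma adjusted p = 0.00207). The integrin gene Itgae, which encodes CD103 on epithelium-homing Treg cells, measured 3.31 and 3.66 against 1.24 and 1.90 and rose 3.78-fold (limma adjusted p = 0.0238). The Ikaros-family factor Ikzf4 rose 3.58-fold, from -2.90 and -2.86 to -1.09 and -0.99, while its relative Ikzf2 was at 3.86 and 3.85 against 2.29 and 2.62 and was not called (limma adjusted p = 0.0873), although it was in 8 of 17 alternative fits. Fgl2, a secreted suppressive mediator, rose 2.50-fold. Other genes often linked with Treg cells did not pass the test. The inhibitory cytokine Il10 was at -1.21 and -1.46 in Treg and -1.56 and -1.04 in CD44hi (limma adjusted p = 0.975), and the costimulator Icos was at 4.58 and 4.80 against 4.93 and 5.36 (limma adjusted p = 0.471). Klrg1, a receptor of differentiated effector cells and of a Treg subset, was at 2.49 and 2.39 against 0.93 and 0.87 and missed the threshold (limma adjusted p = 0.0726), which it passed in 6 of 17 alternative fits. Leaving out the 4 arrays in the order given above gave 7, 9, 9 and 10 calls on the list. Among the named genes, the call of Itgae was lost without either Treg array or CD44hi array 1, those of Ctla4 and Fgl2 without Treg array 1, and those of Gpr83, Swap70 and Ikzf4 in none of these fits.

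**Figure D3:**
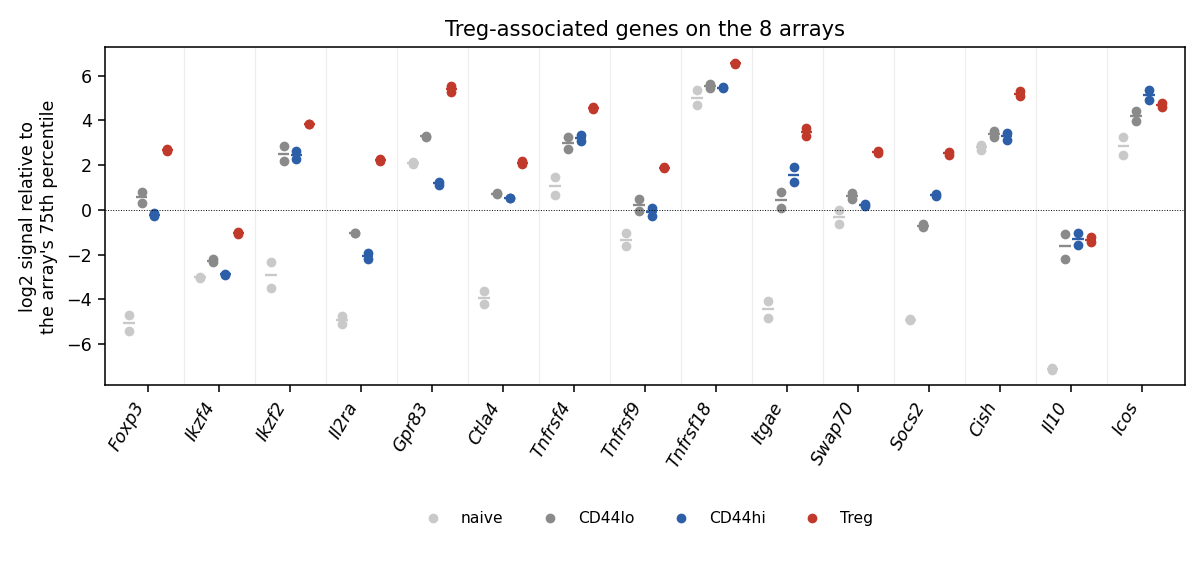
Level of 15 Treg-associated genes on each of the 8 arrays (log2 signal relative to the array's 75th percentile), with points for single arrays and bars for the mean of a group's 2 arrays. Foxp3, Il2ra and Gpr83 stand highest on the red Treg points, whereas the Treg and CD44hi points overlap for Il10 and CD44hi lies higher for Icos.

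Of 22 transcription factors that act with Foxp3 or in its pathway, 5 rose in Treg and 2 fell, with a list median of 0.31. Bach2, a repressor that holds back effector differentiation, measured 2.92 and 3.09 in Treg against 1.58 and 1.16 in CD44hi and rose 3.11-fold (limma adjusted p = 0.00409). Satb1, a chromatin organizer that is abundant in naive T cells, rose 2.28-fold (limma adjusted p = 0.0107). Both were higher still in naive cells, where Satb1 reached 5.71 and 5.94. The fallers were Runx3, a factor of the Th1 and cytotoxic lineages, which was 2.06-fold lower (limma adjusted p = 0.0147), and Tcf7, which encodes the stem-like and naive T cell factor TCF-1 and was 2.04-fold lower at 4.40 and 4.23 against 5.34 and 5.33 (limma adjusted p = 0.00815). Lef1, the partner of Tcf7, was at 4.35 and 4.06 against 3.87 and 3.73 and was not called. With the arrays left out in the same order, 3, 3, 4 and 5 genes of the list were called. Tcf7 lost its call in each of these fits, and Satb1 and Runx3 without either Treg array or CD44hi array 1.

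Of 17 genes of IL-2, the related cytokine receptors and their SOCS feedback inhibitors, 5 rose and 2 fell in Treg. Il2ra, the alpha chain that gives the IL-2 receptor its high affinity, measured 2.26 and 2.18 in Treg and -2.22 and -1.95 in CD44hi, a 19.8-fold difference (log2 4.30 ± 0.18, limma adjusted p = 0.000183). Its other 3 measured probes had the same direction. Il2 itself was at -5.70 and -5.38 in Treg and -1.68 and -1.96 in CD44hi, 13.2-fold lower in Treg (log2 -3.72 ± 0.29, limma adjusted p = 0.000904) and 4.68-fold lower under normexp correction. The Treg level of Il2 was near that of the naive arrays (-6.98 and -6.14).

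Of the SOCS-family feedback inhibitors, which signals from the IL-2 receptor are known to induce, Cish, Socs2 and Socs1 rose. Cish measured 5.31 and 5.08 against 3.44 and 3.13 and was 3.76-fold higher (limma adjusted p = 0.00217). Socs2 was 3.65-fold higher at 2.60 and 2.47 against 0.64 and 0.70 (limma adjusted p = 0.000809), and Socs1 rose 2.36-fold. Socs3 was at 5.44 and 5.68 against 4.62 and 4.82 and missed the threshold (limma adjusted p = 0.0524), which it passed in 9 of 17 alternative fits. Il4ra, the IL-4 receptor alpha chain, was 2.88-fold higher in Treg (limma adjusted p = 0.00191), with levels of 4.52 and 4.42 that were close to those of naive cells. Il9r fell 6.16-fold (limma adjusted p = 0.00404). The beta chain Il2rb and the shared gamma chain Il2rg did not pass the test, at log2 differences of 0.72 and 0.10. After the same omissions, 6 genes of the list were called in each fit, namely Il2ra, Il2, Cish, Socs2, Il4ra and Il9r.

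Among 25 receptors and ligands of the TNF superfamily, 4 rose and 4 fell in Treg (32.0% called, beside 8.62% of all tested genes). Of the risers 3 were receptors and 1 was a ligand, while the fallers were ligands, and receptors were not tested against ligands. The receptors Tnfrsf9 (4-1BB), Tnfrsf4 (Ox40) and Tnfrsf18 (GITR), which costimulate T cells, rose 3.91-fold, 2.51-fold and 2.12-fold. Tnfrsf18 measured 6.58 and 6.53 in Treg against 5.43 and 5.51 in CD44hi (limma adjusted p = 0.0314). Tnfrsf9 measured 1.87 and 1.90 against -0.26 and 0.09 (limma adjusted p = 0.00605), but its other measured probe went the opposite way, and the call was lost when a gene's probes were averaged. The remaining riser was the ligand Lta (lymphotoxin alpha), at 2.31-fold. Among the fallers, Tnfsf14 (LIGHT) measured 1.29 and 1.50 against 3.97 and 3.93 and fell 5.88-fold (limma adjusted p = 0.00252). Cd40lg, the signal by which helper cells license B cells and dendritic cells, measured -4.60 and -4.67 against -2.17 and -2.05 and fell 5.76-fold (limma adjusted p = 0.000531), to below its naive level (-2.26 and -2.59). Fasl, the death ligand, fell 2.89-fold and Tnfsf8 (CD30 ligand) 2.24-fold. In the fits without 1 array, in the same order, 5, 3, 4 and 4 genes of the list were called, with Tnfrsf4, Tnfrsf18 and Lta lost in each fit, Fasl without Treg array 2 or CD44hi array 1, and Tnfsf8 without Treg array 2 or CD44hi array 2.

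Of 23 other costimulatory and inhibitory receptors and their ligands, 2 rose and 3 fell (21.7% called, beside 8.62% of all tested genes). Besides Ctla4, the riser was Cd86, a ligand of CD28 and Ctla4 that activated T cells can also carry, at -0.11 and -0.15 against -1.81 and -1.61 (3.00-fold, limma adjusted p = 0.00278). The SLAM-family receptors Slamf6 and Cd84, which hold T and B cells together, fell 1.80-fold and 1.66-fold, and the inhibitory receptor Btla fell 1.71-fold. These 3 calls were lost in each fit that left out 1 of the 4 arrays. Lag3, an inhibitory receptor of activated cells, was at 1.02 and 1.00 against 1.61 and 1.64 and was not called (limma adjusted p = 0.291). Pdcd1 (PD-1) was at 2.99 and 2.94 against 3.90 and 4.47 and missed the threshold (limma adjusted p = 0.0711).

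Of 12 genes that handle extracellular ATP, adenosine and its messenger cAMP, 3 rose and 1 fell in Treg. Entpd1 encodes CD39, the enzyme by which Treg cells degrade extracellular ATP. It measured -0.15 and -0.01 in Treg, -1.05 and -1.16 in CD44hi and -7.30 and -7.81 in naive cells, and the Treg rise over CD44hi was 2.03-fold (limma adjusted p = 0.0436). The adenosine deaminase gene Ada rose 2.37-fold (limma adjusted p = 0.0270). The third riser was Pde4d, a phosphodiesterase gene, at 1.67-fold (limma adjusted p = 0.0385), with 1 of its 2 other measured probes going the opposite way. These 3 calls were lost in each fit that left out 1 of the 4 arrays. That of Entpd1 was also lost with the slide as a term, with the sample number as a block and under quantile normalization. That of Pde4d was also lost with the slide as a term, under normexp correction and with median scaling. The Pde4d difference turned to -0.20 when a gene's probes were averaged. The faller was Pde3b, a phosphodiesterase that breaks down cAMP, at -3.96 and -4.16 in Treg and -0.84 and -1.30 in CD44hi (7.94-fold lower, log2 -2.99 ± 0.26, limma adjusted p = 0.00138). Pde3b was highest in naive cells (0.92 and 0.61), and its call was kept in each of those fits. Nt5e, which encodes CD73 and turns AMP into adenosine, was at 3.47 and 3.29 against 2.82 and 2.77 and was not called (limma adjusted p = 0.171).

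Of 19 tested Th1 genes, 11 fell in Treg and 3 rose, with a list median of -1.53. Tbx21, which encodes the Th1 master regulator T-bet, measured 1.10 and 1.53 in Treg against 4.28 and 4.04 in CD44hi, 7.19-fold lower (log2 -2.85 ± 0.38, limma adjusted p = 0.00575). Ifng, the Th1 effector cytokine, measured 1.40 and 1.68 against 3.69 and 4.16, 5.20-fold lower (log2 -2.38 ± 0.46, limma adjusted p = 0.0236). Neither gene was silent in Treg, since the naive arrays lay at -5.26 and -4.15 for Ifng and at -2.94 and -2.03 for Tbx21. The chemokine Ccl5 measured 2.07 and 1.81 against 5.45 and 4.85 and was 9.24-fold lower (limma adjusted p = 0.00550). Cxcr3, the Th1 homing receptor, fell 3.84-fold from 5.69 and 5.43 to 3.70 and 3.54 (limma adjusted p = 0.0190), and the IL-18 receptor chain Il18rap fell 4.80-fold.

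Both chains of the interferon gamma receptor were among the Th1-list genes that rose. Ifngr2, the limiting chain of the receptor, measured 2.26 and 1.95 in Treg against 0.00 and 0.04 in CD44hi, 4.25-fold higher (limma adjusted p = 0.00186), and the naive arrays were higher still (3.08 and 3.47). Ifngr1 rose 2.12-fold (limma adjusted p = 0.00901). Across the same fits without 1 array, 5, 5, 7 and 8 genes were called lower and 1, 2, 2 and 1 higher. Ifng and Cxcr3 lost their calls in each of these fits, Tbx21 without Treg array 1, and Ifngr1 without Treg array 1 or CD44hi array 2, while Ccl5 and Ifngr2 kept theirs.

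**Figure D4:**
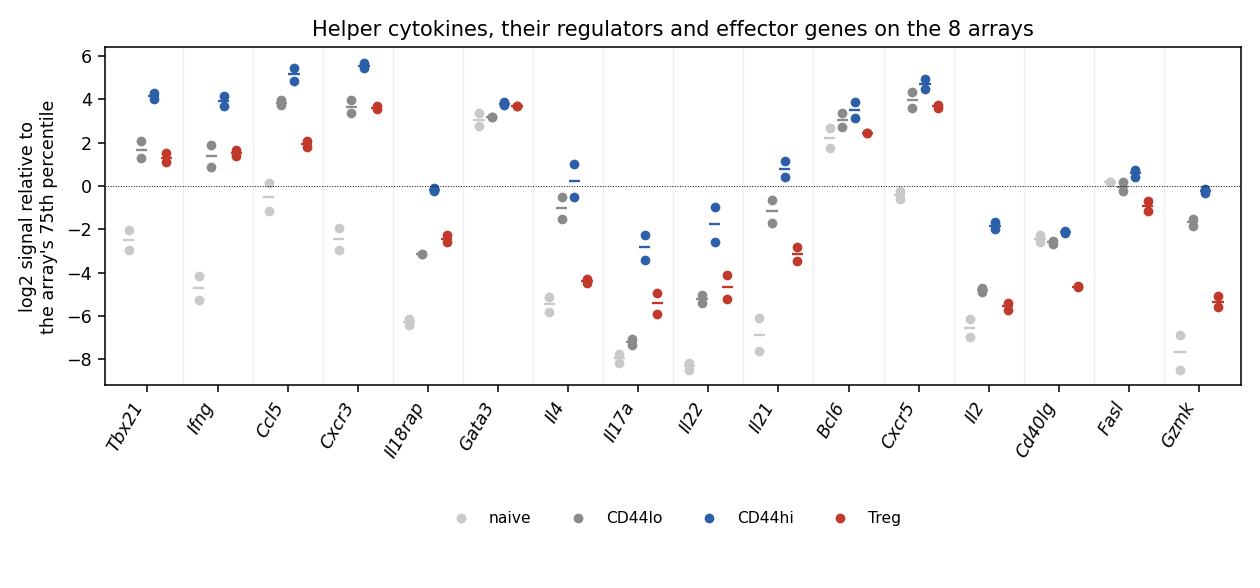
Level of 16 helper cytokine, regulator and effector genes on each of the 8 arrays (log2 signal relative to the array's 75th percentile), with points for single arrays and bars for the mean of a group's 2 arrays. The blue CD44hi points lie above the red Treg points for Tbx21, Ifng, Ccl5, Il4, Il21 and Gzmk, while the groups meet for Gata3.

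Among 14 tested Th2 genes, 2 fell and 1 rose in Treg. Il4, the Th2 and follicular cytokine, was at -4.49 and -4.30 in Treg against -0.52 and 1.00 in CD44hi, 24.8-fold lower (log2 -4.63 ± 0.54, limma adjusted p = 0.00361) and 12.7-fold lower under normexp correction. Its 2 CD44hi arrays differed more than its Treg arrays. The groups did not overlap, which also held, with Treg lower, for 31.6% of all tested genes. Epas1, which encodes a hypoxia-inducible factor, fell 3.76-fold (limma adjusted p = 0.00226), and the riser was Il4ra, described above. Gata3, the master regulator of Th2 cells that Treg cells also express, measured 3.70 and 3.69 in Treg and 3.72 and 3.89 in CD44hi, a difference of -0.12 ± 0.22 (limma adjusted p = 0.830). The 3 calls on the list were kept in each fit that left out 1 of the 4 arrays.

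Of 18 tested genes of follicular helper T cells, which instruct B cells in germinal centres, 8 fell in Treg and none rose by limma, nor at an unadjusted p under 0.05, with a median of -1.04. Sostdc1, a secreted antagonist of BMP and Wnt signals, measured -3.44 and -2.78 in Treg against 1.60 and 2.65 in CD44hi, 37.7-fold lower (log2 -5.24 ± 0.70, limma adjusted p = 0.00575). The cytokine Il21 measured -3.46 and -2.82 against 0.42 and 1.17, 15.3-fold lower (limma adjusted p = 0.00943). Pou2af1, a transcriptional coactivator, fell 7.07-fold (limma adjusted p = 0.00543) and ended below its naive level, at 0.21 and 0.52 against 1.77 and 2.70. The factor Ascl2 fell 5.50-fold, a call that was lost without either Treg array or CD44hi array 2. The programme's master regulator Bcl6 was at 2.46 and 2.47 against 3.15 and 3.89, and its homing receptor Cxcr5 at 3.75 and 3.61 against 4.50 and 4.92. Neither passed the test (limma adjusted p = 0.181 and 0.0828). With the arrays left out in the same order, 4, 5, 6 and 4 genes of the list were called, and Il21 lost its call without Treg array 1 or CD44hi array 2.

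Of 17 tested Th17 genes, 7 fell in Treg and none rose by limma, nor at an unadjusted p under 0.05, with a median of -1.06. Il17a measured -5.90 and -4.92 in Treg against -3.40 and -2.26 in CD44hi (5.96-fold lower, limma adjusted p = 0.0163), and Il22 measured -5.23 and -4.09 against -2.56 and -0.98 (7.40-fold lower, limma adjusted p = 0.0248). The IL-1 receptor gene Il1r1 measured -3.32 and -1.96 against -0.49 and 0.98 (7.38-fold lower, limma adjusted p = 0.0285). In each of these genes both groups were higher on array 2 than on array 1, and the difference was near the same within each slide. Rora, which encodes a nuclear receptor of the lineage, fell 2.11-fold. The counts of this list depended on single arrays, with 0, 6, 7 and 1 calls when the arrays were left out in the order given above. Cd163l1, a scavenger receptor gene of gamma-delta T cells, moved with the list, at -2.89 and -1.94 in Treg and 0.05 and 1.55 in CD44hi (9.30-fold lower, limma adjusted p = 0.0111). Of 11 genes listed as markers of invariant NKT and gamma-delta T cells, 5 were on the array, and Zbtb16, Trdc and Tcrg-C1 were among those that were not. Of the 5, 3 were tested and 2 of these fell. The summed signal of the 5, in units of the array's 75th percentile, was 12.0 and 12.6 in Treg and 12.1 and 13.7 in CD44hi. Cd1d1 alone made up 11.7 and 12.2 of it in Treg and 10.3 and 9.94 in CD44hi, and the other 4 markers summed to 0.302 and 0.413 in Treg and 1.79 and 3.73 in CD44hi. Sox13 was not well above background on any of the 4 arrays, and their part in the Th17 result was not tested.

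Of 20 tested chemokine receptors, 4 fell and 1 rose in Treg (25.0% called, beside 8.62% of all tested genes). Ccr10, a receptor of skin-homing cells, measured -5.86 and -6.03 in Treg against -2.23 and -2.30 in CD44hi, 12.8-fold lower (limma adjusted p = 0.00103) and 4.26-fold lower under normexp correction. Cxcr6, a receptor of tissue-resident and effector cells, measured 0.37 and 1.18 against 3.19 and 3.83, 6.66-fold lower (limma adjusted p = 0.00590). The riser was the gut-homing receptor Ccr9, at 0.18 and -0.11 against -1.33 and -1.26 (2.51-fold, limma adjusted p = 0.0122). Ccr7, which leads cells into lymph nodes, was at 3.94 and 3.57 against 3.24 and 2.95 and was not called (limma adjusted p = 0.125). After the same omissions, 2, 3, 2 and 3 genes of the list were called, and Ccr10 and Cxcr6 were among them in each fit. Ccr9 kept its call only without Treg array 2.

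Of 11 chemokine ligands, Ccl5 and Ccl3 fell in Treg and Ccl20 rose. Ccl3 measured -4.29 and -4.28 against -2.72 and -2.30 (3.41-fold lower, limma adjusted p = 0.00808). Ccl20, a chemoattractant of lymphocytes and dendritic cells, measured -3.24 and -3.76 against -5.25 and -5.72 (3.96-fold higher, limma adjusted p = 0.00859), with the naive arrays at -5.94 and -5.33. Ccl20 lost its call without Treg array 1 or CD44hi array 2 and under normexp background correction, and Ccl3 without either Treg array.

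Among 25 integrin and adhesion genes, 3 rose and 5 fell. Itgb1, the beta 1 chain of the very late antigen integrins of effector cells, measured 1.19 and 1.27 in Treg against 3.66 and 3.61 in CD44hi, 5.29-fold lower (log2 -2.40 ± 0.21, limma adjusted p = 0.00134). Itga6 went the other way and was 2.90-fold higher in Treg (limma adjusted p = 0.00337), at 4.10 and 4.03 beside 3.94 and 4.34 in naive cells. Ly6a (Sca-1) fell 2.30-fold (limma adjusted p = 0.0231). In the fits without 1 array, in the same order, 3, 3, 4 and 5 genes of the list were called. Itgb1 and Itga6 kept their calls throughout, and Ly6a lost its call in each fit.

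Of 21 S100, annexin, galectin and related genes, which effector and memory T cells accumulate, 10 fell in Treg and 1 rose, with a median of -1.03. The membrane protein gene Emp1 measured -2.18 and -1.59 in Treg against 0.71 and 0.80 in CD44hi and fell 6.22-fold (limma adjusted p = 0.00173). Spp1, which encodes osteopontin, measured -0.71 and -1.05 against 1.12 and 1.48 and fell 4.53-fold (limma adjusted p = 0.00280). The annexin gene Anxa2 fell 4.42-fold (limma adjusted p = 0.0240), and Lgals3, which encodes galectin-3, fell 3.92-fold. Vim, a cytoskeletal gene, was at 5.27 and 5.48 against 5.67 and 5.86 and was not called. Treg lay between naive and CD44hi in the mean level of Emp1, Spp1 and Anxa2. Across the same fits without 1 array, 4, 6, 6 and 5 genes of the list were called, with Emp1 and Spp1 among them in each fit and Anxa2 lost in each.

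Of 19 killer cell lectin-like receptor and cytotoxic genes, 10 fell in Treg and none was called higher by limma (4 higher at an unadjusted p under 0.05), with a median of -1.36. The median was -0.65 under normexp correction and -0.55 in the authors' deposited table, with 3 genes called higher in each, and 3 were also called higher without the naive arrays. Gzmk, which encodes granzyme K, measured -5.60 and -5.08 in Treg against -0.30 and -0.12 in CD44hi, 35.0-fold lower (log2 -5.13 ± 0.49, limma adjusted p = 0.00185) and 12.6-fold lower under normexp correction. Klrk1 (NKG2D) was not well above background in Treg and at -2.85 and -2.54 in CD44hi, at least 12.0-fold lower (limma adjusted p = 0.00306) and 3.10-fold lower under normexp correction. Such a bound sets the bright group's mean against, on each dim array, the higher of the gene's own signal and the lowest signal that counted as well above background. For Klrk1 its own signal was the higher on both, so that bound and fitted fold are the same. Klrd1 (CD94) measured -2.63 and -3.10 against 0.47 and -0.02, 8.52-fold lower (limma adjusted p = 0.00186), with a higher level in naive cells (2.58 and 2.92). Granzyme B did not follow granzyme K, since Gzmb was at 0.36 and 1.04 in Treg and -0.31 and -0.43 in CD44hi (log2 1.08 ± 0.26, limma adjusted p = 0.0541), a difference called in 6 of 17 alternative fits. With the arrays left out in the same order, 7, 8, 9 and 8 genes of the list were called.

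Markers of CD8 T cells and NK cells moved with this group. Of 15 such markers on the array, 12 were tested, 6 fell in Treg and none rose by limma (2 higher at an unadjusted p under 0.05), and 4 of the 6 are also on the list of lectin-like receptors and cytotoxic genes. The summed signal of the 15 markers was 6.90 and 6.44 in Treg and 7.09 and 6.46 in CD44hi, in units of the array's 75th percentile. Cd8b1 made up 5.44 and 5.18 of this sum in Treg and 3.32 and 3.23 in CD44hi, and the other 14 markers summed to 1.46 and 1.26 in Treg and 3.76 and 3.23 in CD44hi. Klre1 and Klra4 were not well above background on any of the 4 arrays, and Cd8b1 was at 2.44 and 2.37 in Treg and 1.73 and 1.69 in CD44hi and was not called (limma adjusted p = 0.116). The part of other cell types in the cytotoxic result was not tested. In sorted bulk samples such as these, fewer cells of a type and less RNA per cell cannot be told apart.

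Genes of the naive state were mixed, with 6 of 23 higher and 3 lower in Treg. Tspan9, a tetraspanin gene, measured -1.37 and -1.23 in Treg against -4.17 and -4.39 in CD44hi (7.91-fold higher, limma adjusted p = 0.000685). Ampd1, an enzyme of AMP breakdown, rose 5.38-fold (limma adjusted p = 0.00416), and Igfbp4, a binding protein of insulin-like growth factors, 4.81-fold (limma adjusted p = 0.00278). All 3 were still lower in Treg than in naive cells, whose levels lay between 0.87 and 2.63. Dapl1, a small regulator of quiescent T cells, went the other way and fell 3.77-fold (limma adjusted p = 0.00991), from 2.18 and 1.64 to 0.23 and -0.23. After the same omissions, 7, 6, 7 and 8 genes of the list were called, and Dapl1 lost its call without Treg array 2.

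Among 23 effector-state transcription factors, 7 were called lower in Treg and none higher by limma (1 higher at an unadjusted p under 0.05), with a median of 0.01. Of the 23 differences, 12 were above 0. Under normexp correction, in the authors' deposited table and without the naive arrays, 1 gene was called higher in each. Id2, an inhibitor of E proteins that supports effector differentiation, measured 2.08 and 2.04 in Treg against 4.29 and 4.30 in CD44hi, 4.70-fold lower (limma adjusted p = 0.000422). The Treg level of Id2 was below that of naive cells (2.45 and 2.61). Eomes, a T-box factor of memory and cytotoxic cells, fell 3.21-fold (limma adjusted p = 0.00238). Prdm1, which encodes Blimp-1 and is active in effector cells and Treg cells alike, was at 0.06 and 0.07 against -0.20 and -0.34 and was not called (limma adjusted p = 0.280). In the fits without 1 array, in the same order, 2, 4, 4 and 4 genes of the list were called, and Id2 and Eomes were among them in each fit.

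Of 30 genes of T cell receptor signalling, 1 rose and 2 fell in Treg, so 3 of 30 were called, beside 8.62% of all tested genes. Themis, a signalling adaptor, measured -1.96 and -1.98 in Treg against 0.34 and 0.15 in CD44hi and fell 4.63-fold (limma adjusted p = 0.000496), to below its naive level (-0.23 and -0.17). The kinase gene Zap70 fell 1.60-fold and the Tec kinase gene rose 1.64-fold, and both calls were lost in each fit that left out 1 of the 4 arrays and with the slide as a term. Lck was at 6.21 and 6.13 against 6.44 and 6.40 and was not called.

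Of 26 immediate early genes and MAP kinase phosphatases, 3 rose and 1 fell (15.4% called, beside 8.62% of all tested genes). Myc, the growth regulator, measured 3.58 and 3.34 in Treg against 1.41 and 1.31 in CD44hi and rose 4.29-fold (limma adjusted p = 0.00490), with naive cells at 2.87 and 3.68. Dusp4, a phosphatase of ERK, rose 2.52-fold and Jun 2.05-fold, and Ier3, a stress-induced survival gene, fell 6.79-fold (limma adjusted p = 0.00207). Myc and Ier3 kept their calls in each fit that left out 1 of the 4 arrays, while Jun and Dusp4 lost theirs. Among 15 NF-kappaB subunits and inhibitors only Nfkbiz passed the test (6.67%, beside 8.62% of all tested genes). It was 1.98-fold higher, and its call was lost in each of those fits.

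Of 18 Bcl2-family and apoptosis genes, 3 rose and 1 fell in Treg (22.2% called, beside 8.62% of all tested genes). Bcl2 measured 4.04 and 3.64 in Treg against 2.61 and 2.28 in CD44hi and rose 2.62-fold (limma adjusted p = 0.0152). The pro-death gene Bcl2l11 (Bim) rose with it, 1.72-fold, and Bik, also a pro-death gene, fell 2.86-fold. Across the same fits without 1 array, 0, 1, 2 and 0 genes of this list were called, and Bcl2 lost its call without Treg array 1 or CD44hi array 2. Of 9 regulators of G protein signalling, Rgs9 and Rgs1 rose and none fell by limma (1 lower at an unadjusted p under 0.05). Rgs9 measured -1.06 and -1.15 against -4.09 and -3.20 (5.80-fold, limma adjusted p = 0.00552). Rgs1, a brake on chemokine signals, measured 4.72 and 4.71 against 2.67 and 2.92 (3.78-fold, limma adjusted p = 0.0109) and lost its call without either Treg array or CD44hi array 1. None of 7 Gimap genes, which encode lymphocyte survival GTPases, was called by limma, and none had an unadjusted p under 0.05.

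Interferon-response genes moved both ways. Of 30, 7 rose and 4 fell in Treg. Guanylate-binding proteins are GTPases induced by interferon gamma. Of these, Gbp2b measured 0.48 and 0.47 in Treg against -3.88 and -4.04 in CD44hi, 21.6-fold higher (log2 4.43 ± 0.22, limma adjusted p = 0.000256), and was at -8.41 and -8.03 in naive cells. Gbp3 measured 3.92 and 3.91 against 2.55 and 2.21 and rose 2.90-fold (limma adjusted p = 0.00455). Genes of the type I interferon response went both ways. Mx1 was at -2.66 and -2.86 against -0.68 and -1.13 (3.63-fold lower, limma adjusted p = 0.00413), Rsad2 fell 2.87-fold and Oas3 2.65-fold, while Oasl1 and Usp18 rose 2.54-fold and 2.85-fold. Gbp2b, Gbp3 and Mx1 kept their calls in each fit that left out 1 of the 4 arrays, while Rsad2, Oas3, Oasl1 and Usp18 lost theirs in 3 of the 4. With the arrays left out in the same order, 3, 3, 5 and 5 genes of the list were called.

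Cell division genes lay lower in Treg without passing the test. None of 26 mitosis genes was called by limma, and 16 had an unadjusted p under 0.05, each of these lower in Treg. Under normexp background correction 4 of them were called lower, and 3 were from the values of the authors. The 26 differences lay between -1.25 and -0.60 with a median of -0.95, and 26 of 26 were below 0 on both slides. Mki67, which encodes the proliferation antigen Ki-67, measured 2.94 and 3.58 in Treg against 4.13 and 4.45 in CD44hi and -1.99 and -1.12 in naive cells (log2 -1.03 ± 0.41, limma adjusted p = 0.206). Cdc20, an activator of the anaphase-promoting complex, was at 2.03 and 2.74 against 2.93 and 3.58 (limma adjusted p = 0.211). The arrays of the groups did not overlap for 23 of the 26 genes, against 31.6% of all tested genes that were lower without overlap. Array 2 was higher than array 1 in both groups for Mki67 and Cdc20, and genes of a shared process are not separate observations. The median was -0.54 without Treg array 1 and -1.36 without Treg array 2. Of 28 DNA replication genes none was called by limma and 1 had an unadjusted p under 0.05, with a median of -0.28. That median was -0.06 without Treg array 1 and -0.51 without Treg array 2. It was -0.49 without CD44hi array 1 and -0.12 without CD44hi array 2. Pcna, the replication clamp, was at 4.45 and 4.78 against 4.71 and 4.97.

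None of 39 cytosolic ribosomal protein genes was called by limma and 1 had an unadjusted p under 0.05, although 39 of 39 differences were above 0, between 0.05 and 0.62 with a median of 0.25. The median was 0.12 in the authors' table and 0.13 under quantile normalization, with 2 genes called higher in either, and without the naive arrays 8 were called higher. None of 28 oxidative phosphorylation genes was called by limma and none had an unadjusted p under 0.05, with a median of -0.06. Of 19 glycolysis genes 3 were called (15.8%, beside 8.62% of all tested genes). The glucose transporter gene Slc2a3 rose from 1.70 and 1.72 to 3.03 and 3.10 (2.55-fold, limma adjusted p = 0.00268). Ldhb, a subunit of lactate dehydrogenase, rose 2.30-fold and Pfkp fell 1.54-fold, and both calls were lost in each fit that left out 1 of the 4 arrays. Of 21 genes of cholesterol and lipid metabolism, 4.76% were called, beside 8.62% of all tested genes. The cholesterol exporter gene Abca1 rose 3.12-fold, from -1.27 and -1.43 to 0.45 and 0.12 (limma adjusted p = 0.00257), and no other was called. On a list of 15 stress genes, 13.3% were called, beside 8.62% of all tested genes. The small heat shock protein gene Hspb1 rose 6.49-fold (limma adjusted p = 0.00129). Hmox1, the haem-degrading enzyme of oxidative stress, fell 2.72-fold (limma adjusted p = 0.0422). The Hmox1 call was lost without both naive arrays, with the slide as a term and without either Treg array or CD44hi array 2.

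**Figure D5:**
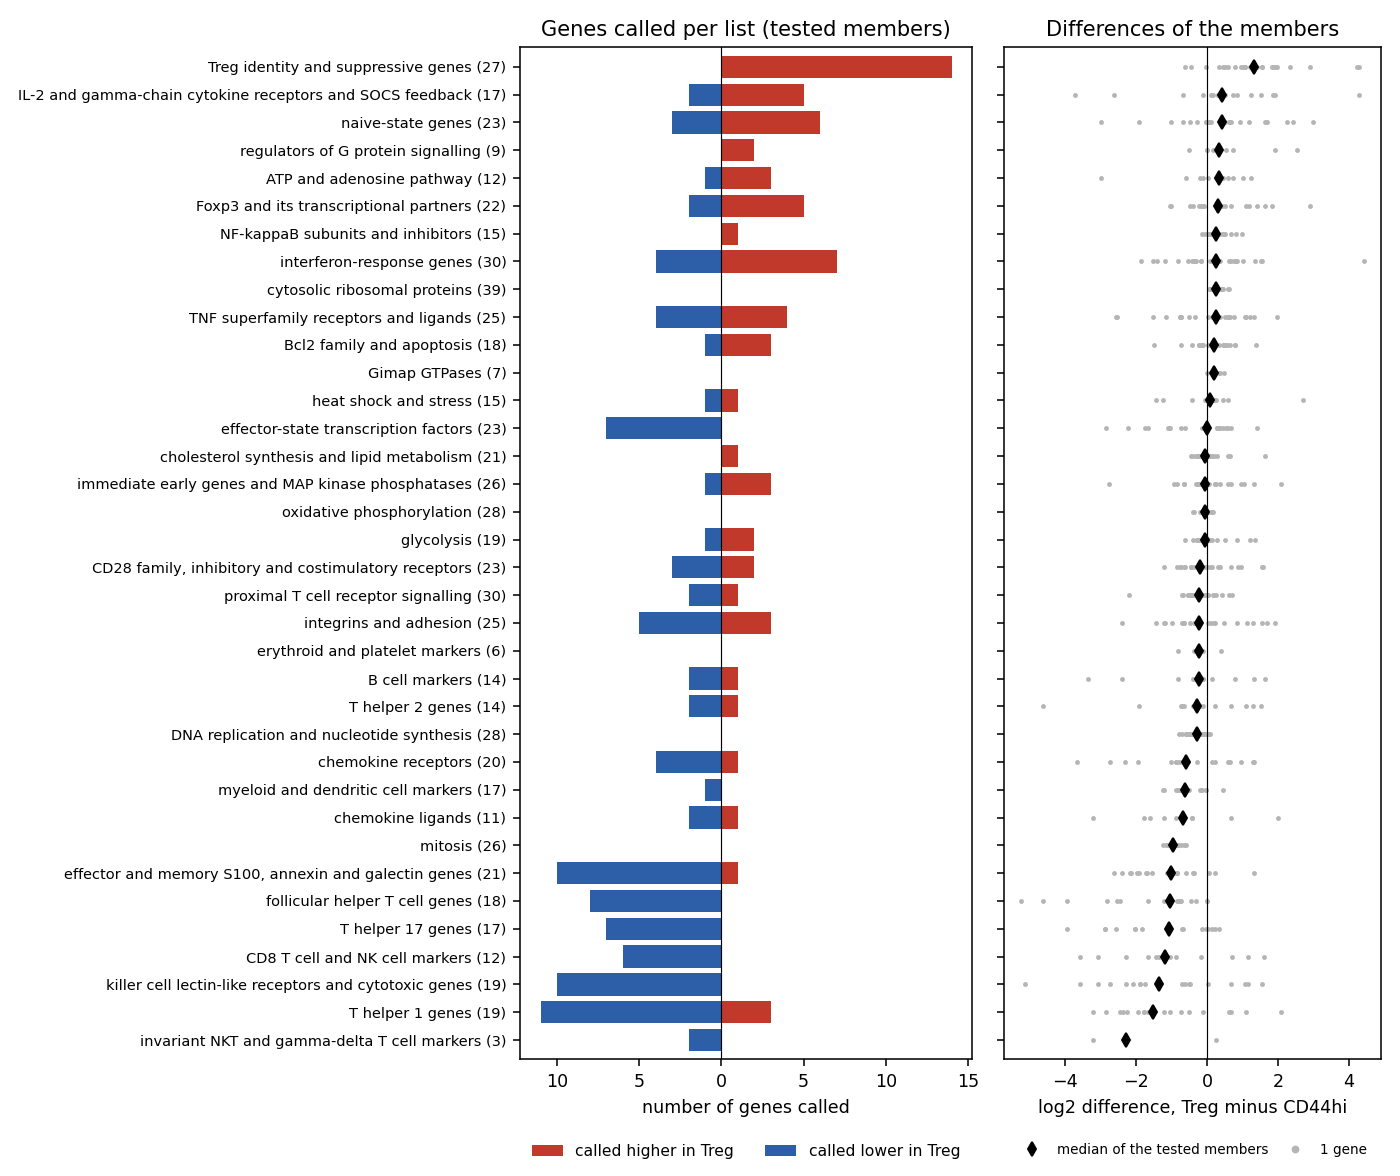
Counts of genes called higher (red) or lower (blue) in Treg for each gene list (left; tested members in brackets) and log2 difference, Treg minus CD44hi, of each tested member (right; grey points are genes and diamonds the list medians). The Treg identity list has 14 genes called higher and none lower, while the lists of Th1, follicular helper, Th17, cytotoxic and S100 genes lean to the lower side. Lists share some genes.

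Of 18 B cell markers on the array, 14 were tested, and 1 rose and 2 fell in Treg (21.4%, beside 8.62% of all tested genes). Cd79b, a chain of the B cell receptor, measured 1.89 and 1.79 in Treg against 0.12 and 0.30 in CD44hi (3.10-fold higher, limma adjusted p = 0.0289). The inhibitory B cell receptor gene Cd22 measured -1.42 and -1.02 against 1.03 and 1.31 (5.25-fold lower, limma adjusted p = 0.0199). Both calls were lost in each fit that left out 1 of the 4 arrays. Pax5, the transcription factor of the B lineage, was at -5.98 and -4.66 in CD44hi and not well above background in Treg, at least 2.57-fold lower (limma adjusted p = 0.0211). Its call was lost without either Treg array or CD44hi array 2, under normexp correction and in the authors' deposited table. The summed signal of the 18 markers was 13.9 and 10.1 in Treg and 13.8 and 8.92 in CD44hi, in units of the array's 75th percentile. Without Jchain the other 17 summed to 7.52 and 7.60 in Treg and 5.29 and 5.91 in CD44hi. Ebf1 and Fcer2a, both defining genes of B cells, were not well above background on any of the 4 arrays. Jchain, a plasma cell gene, differed more between a group's 2 arrays than between the groups, at 2.68 and 1.32 in Treg and 3.09 and 1.59 in CD44hi. It was at -3.20 and -2.59 in naive and at -2.38 and -2.55 in CD44lo. Slide and sample number cannot be told apart for Treg and CD44hi. Of 17 tested myeloid and dendritic cell markers, only Itgax was called, lower in Treg (5.88%, beside 8.62% of all tested genes). Its call was lost without either Treg array or CD44hi array 1, under normexp correction and in the authors' deposited table. At an unadjusted limma p under 0.05, 4 of these markers were lower and 0 higher. The summed signal of all 20 on the array was 2.43 and 1.88 in Treg and 3.06 and 2.57 in CD44hi. None of 6 erythroid and platelet markers was called by limma and none had an unadjusted p under 0.05.

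Outside the lists, the largest rises in Treg were of genes with varied functions. Cyp26b1, a cytochrome that degrades retinoic acid, measured -0.43 and -0.33 in Treg and was not well above background in CD44hi, a difference of at least 61.8-fold (limma adjusted p = 0.000154), against 13.5-fold under normexp correction. Both CD44lo arrays read it at -4.97 and -4.44, well below Treg. Wfdc2, a secreted protease inhibitor, measured -0.15 and -0.41 against -5.82 and -5.68 and was 44.3-fold higher (limma adjusted p = 0.000183), against 11.6-fold under normexp correction. Tnnt2, the cardiac troponin T gene, was at least 27.3-fold higher and C1ql3, of the C1q family, at least 22.2-fold.

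Gata1, the master regulator of red cell and megakaryocyte development, measured 0.41 and 0.66 in Treg against -4.25 and -3.70 in CD44hi, 22.9-fold higher (limma adjusted p = 0.000221). The naive arrays read Gata1 at -1.82 and -1.89 and the CD44lo arrays at -1.67 and -1.68, so that Treg was highest and CD44hi lowest of the 4 groups. Drc1, a gene of motile cilia, measured 0.56 and 0.94 against -4.15 and -4.59 and was 34.8-fold higher (limma adjusted p = 0.000745), but its naive level (0.58 and 1.55) was near that of Treg. The same held for Sorcs2, a sorting receptor, at -0.02 and -0.27 against -4.50 and -4.71 (22.0-fold), with naive cells at -0.22 and -0.64. Khdc1a, an RNA-binding protein gene, rose 31.4-fold and the phosphatase gene Ppm1l 19.5-fold. The remaining risers with a clear role were Acvr1c, a receptor of the TGF-beta family, at least 5.85-fold higher, Ptger3, a prostaglandin E2 receptor, at least 6.54-fold higher, the iron reductase gene Cybrd1, at least 9.75-fold higher, and the channel gene Trpm1, at least 16.3-fold higher. Lama5, a laminin chain, was 23.3-fold higher in the fit (limma adjusted p = 0.0332), against 3.7-fold under normexp correction. Its CD44hi arrays were apart at -8.42 and -5.01, and only 1 of them was well above background. The call was lost without either Treg array, without the naive arrays and with the slide as a term. Cybrd1 lost its call without either Treg array, and Cybrd1 and Ptger3 when a gene's probes were averaged. The other genes named in these paragraphs kept their calls in each fit that left out 1 of the 4 arrays.

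The largest falls outside the lists were also found in genes of many families. Slc22a4, a transporter of ergothioneine and carnitine, measured -0.90 and -0.94 in CD44hi and was not well above background in Treg, at least 54.2-fold lower (limma adjusted p = 0.000381), against 11.1-fold under normexp correction. P2ry1, a receptor for extracellular ADP, measured -1.12 and -0.99 in CD44hi and was at least 47.2-fold lower in Treg (limma adjusted p = 0.00476), against 9.02-fold under normexp correction. The kallikrein gene Klk1b11 was at least 34.9-fold lower. For these 3 genes the naive arrays lay between -8.39 and -7.90, so that CD44hi was the high group.

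Tgfb3, a TGF-beta isoform, measured -3.59 and -3.36 in Treg against 0.72 and 1.03 in CD44hi and was 20.4-fold lower (limma adjusted p = 0.000183), with a Treg level close to that of naive cells (-3.30 and -3.11). Cpne7, a calcium-dependent membrane-binding protein, measured -2.64 and -2.62 against 2.03 and 2.07 and was 25.7-fold lower (limma adjusted p = 0.000652). Lrrc75b fell 24.5-fold from 0.11 and 0.13 to -4.53 and -4.46 (limma adjusted p = 0.000154), and here the naive arrays were highest (1.04 and 1.21), so that Treg was the lowest of the 4 groups. Esm1, a secreted proteoglycan of endothelium, fell 23.3-fold (limma adjusted p = 0.00673), Ankrd35 23.3-fold and the sialyltransferase gene St6galnac2 18.3-fold. Lratd1, Lancl3 and the potassium channel gene Kcnc2 fell by 18.6-fold, 18.4-fold and at least 13.7-fold. The fallers described in these paragraphs kept their calls in each fit that left out 1 of the 4 arrays. Of the 15 largest fallers, Cphx1, Septin12 and Six3 were not described. Septin12 lost its call in each of those fits, and Six3 without either Treg array or CD44hi array 1. Both also lost it in the authors' deposited table.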

How the data were processed

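RNA of each sample was amplified linearly, labelled with Cy3 and hybridized to 1 Agilent array, per the labels' protocols. Per the file headers, the image software was Agilent Feature Extraction (9.5.1.1). The deposited scanner files hold spot intensity values that were background-subtracted and detrended within an array, but not normalized between arrays. Their remaining columns are spot flags of another unit, per the file headers. The authors' deposited value table is on a log2 scale, was read from its values as quantile-normalized without background subtraction, and served as an alternative. Of tools, only limma is named in the submitters' processing notes.

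Outlier spots were dropped, spots of a probe averaged, and log2 signals centred on the array's 75th percentile. For a gene with several probes (27664 names in all) the probe with the highest mean level over all arrays stood for the gene. Of the 41174 probes, 32735 were named through RefSeq GRCm38.p6 tables and 8439 kept the name in the files. Tested genes had a probe well above background on both arrays of Treg or of CD44hi. One limma 3.58.1 fit (R 4.3.3) of all 8 arrays gave the contrast, with no block, 4 residual and 2.74 prior degrees of freedom. Tests were 2-sided, and ± gives limma's standard error. In data simulated for Treg against CD44hi over 17467 genes, 29% of 100 genes changed by log2 1 and 78% of 100 changed by log2 2 were called, beside 8 unchanged genes. The simulated noise was independent between arrays and held no slide or sample-number effect. These figures are therefore not error rates of the real arrays.

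The members, lists and tests were chosen with earlier results of these data known. By rule, named genes were 9 sort and identity genes, up to 4 called risers and fallers and 2 uncalled genes per list, and the 15 largest risers and fallers outside the lists. Ascl2, Bcl6, Cxcr5, Gzmb, Ikzf2, Il10, Il18rap, Il2rb, Il2rg, Klrg1, Lag3, Lgals3, Nt5e, Pdcd1, Prdm1, Rora and Socs1 were added after their values were seen. Of the largest risers, Dnah12 was left out because its probe and RefSeq place it on different chromosomes. Of the largest fallers, Cphx1, Septin12 and Six3 were not described and stand outside the counts of named genes. Alternatives were the fits without 1 array, without the naive arrays (chosen after seeing the data), with only the 4 arrays, with the slide or the sample number as a term, with an intensity trend, other background correction, scaling, filters and probe summaries, and the authors' table. Beyond RefSeq's promoter windows no genome was used here. Because arrays are few, their number limits the precision.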

Additional observations from a re-analysis of the deposited data

How the results depend on the processing

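The direction of the 130 called genes named in the text was kept under every alternative run, except that Pde4d turned to -0.20 (adjusted p = 0.850) when a gene's probes were averaged. Of these genes, 70 kept their call in every alternative and 60 lost it in at least 1, while 14 of the 26 named genes that were not called were called in at least 1. The named genes that were not called have no settled sign where they lie near 0. With 1 of the 4 arrays left out, Il10 ranged from -0.29 to 0.23, Jchain from -1.08 to 0.41 and Il2rg from -0.01 to 0.20, and Il10 was 0.01 in the authors' table and 0.01 with median scaling.

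The number of called genes depended on the spread that entered the fit. Against 1506 (784 higher, 722 lower), leaving out 1 of the 4 arrays gave between 591 and 944 (285 to 444 higher, 306 to 525 lower), where the lone array of a group is assumed to vary like the others. Without the naive arrays, whose spread was the widest, 2876 were called (1541 higher, 1335 lower), including 1453 of the 1506. Testing 27664 names with no filter on dim probes left 786 (400 higher, 386 lower). The other alternatives stayed within 1.5 times, from 1241 with the slide as a term to 2134 in the authors' table (1155 higher, 979 lower), and 2014 probes were called when each was tested on its own.

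The sample numbers of Treg and CD44hi deviated together with a correlation of 0.372 (0.055 to 0.372 over the 6 pairs of groups). The titles carry the prefix m1 or m2 in every group, but the labels do not say what the prefix stands for. With only 2 sample numbers, the main fit did not pair the samples, and whether they are paired was not tested. As given below, 10 genes were higher and 9 lower by over 1 log2 unit in sample 1 than in sample 2 of all 4 groups. The main fit held no term for such shifts. With the number as a replicate block, 1981 genes were called (972 higher, 1009 lower), including 1490 of the 1506, and with only the 4 arrays and the block 1991. Low signal limits the genes printed as bounds.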

Other observations

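A small set of genes followed the sample number in all 4 groups, including those on opposite slides. Of 17467 tested genes, 10 were higher by over 1 log2 unit in sample 1 than in sample 2 of every group and 9 were lower, while 1 gene followed the slide in each direction in the same way. The pancreatic amylase gene Amy2 measured -2.70 and -6.81 on Treg arrays 1 and 2, -2.66 and -5.46 on CD44hi arrays 1 and 2, -2.48 and -6.20 in CD44lo and -3.26 and -7.68 in naive cells. Cela3b, which encodes a pancreatic elastase, measured -3.40 and -7.29 in Treg and -3.45 and -5.66 in CD44hi, and Ctrc, which encodes chymotrypsin C, -3.59 and -7.08 against -3.75 and -5.30. Digestive enzymes of the exocrine pancreas were thus higher in sample 1 of both populations.

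The opposite order was seen for Hspa1a, a heat shock chaperone gene, at -2.99 and -0.57 in Treg, -1.38 and 0.30 in CD44hi, -2.61 and 0.59 in CD44lo and -3.31 and -0.35 in naive cells. The peptide transporter gene Slc15a2 measured 0.05 and 1.79 in Treg against -1.01 and 0.95 in CD44hi. The immunoglobulin heavy chain segment Igh-VJ558 measured 6.61 and 4.38 in Treg and 7.07 and 4.48 in CD44hi, and between -2.33 and -0.10 on the naive and CD44lo arrays. These genes were picked after their values were seen.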
